A study of Mus musculus with 32 samples.

Results

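The loci of 6 innate sensing and cytokine genes (Tlr4, Tnf, Il1b, Il10, Ccl2 and Nfkbia) were examined in the open-chromatin maps of liver endothelial cells and of Kupffer cells, the macrophages that reside in the liver sinusoids. Each locus was taken as a fixed window of the mm9 genome around the gene, and every ATAC-seq peak whose centre lay in a window was counted. The windows held 172 peaks of the 229137 in the series, 50 of 91453 in the endothelial list and 122 of 137684 in the Kupffer list. Peaks that had 1 bp or more in common with a peak of the other cell type are called shared, and the rest endothelial-only or Kupffer-only.

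The study profiled cells isolated from male C57BL/6J mice on normal chow, to ask how the clock of hepatocytes acts on other liver cells. The mice were wild type (WT) or REV-ERB a/b double knockout, the latter lacking both REV-ERB nuclear receptors, repressors of the circadian clock, in adult hepatocytes and not by design in the cells profiled here. Cells of each type and genotype were taken at ZT10 and at ZT22, zeitgeber times counted from lights on, with 4 libraries per group and 32 in all. For the age of the mice and the way the receptors were deleted, nothing is stated in the sources used here. ATAC-seq uses a transposase that cuts and tags open DNA, and the lists hold the peaks of nucleosome-free regions. The files give 1 list of positions for each cell type, so WT and knockout, and the times of day, were not compared, and the values have no replicates. The depth behind the lists is unknown, and a site that a list leaves out was not shown to be closed.

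Toll-like receptor 4 recognises bacterial lipopolysaccharide, which reaches the liver from the gut through the portal vein, and both sinusoidal endothelial cells and Kupffer cells meet it there. Its signalling frees the transcription factor NF-kB from IkB proteins, and NF-kB then drives genes of inflammatory cytokines and chemokines. Among these are Tnf and Il1b, which encode inflammatory cytokines, Ccl2, which encodes a chemokine that recruits monocytes, and Nfkbia, which encodes the inhibitor IkB-alpha and so closes a negative feedback loop. Il10 encodes an anti-inflammatory cytokine that macrophages make.

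Promoter sequence is shown for Tnf, Il1b and Nfkbia, the 3 of 6 genes with an entry in the RefSeq promoter table (GRCm38.p6). The sequences differed in exact-letter matches to TATAAA and to the NF-kB consensus. Tlr4, Il10 and Ccl2 were not matched. Each sequence is the 250 bases before the transcription start, 5' to 3' on the gene's strand (minus for all 3). The capitals mark TATAAA or a match to the NF-kB consensus. On GRCm38.p6 the stretches lie at chr17:35202008-35202257 for Tnf, chr2:129371140-129371389 for Il1b and chr12:55492648-55492897 for Nfkbia. These positions belong to another build than the peaks and were not set against them.
Tnf: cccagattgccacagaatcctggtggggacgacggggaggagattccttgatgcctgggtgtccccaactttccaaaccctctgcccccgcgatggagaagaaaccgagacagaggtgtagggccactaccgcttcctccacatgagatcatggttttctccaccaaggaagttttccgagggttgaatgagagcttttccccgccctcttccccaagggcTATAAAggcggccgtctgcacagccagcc
Il1b: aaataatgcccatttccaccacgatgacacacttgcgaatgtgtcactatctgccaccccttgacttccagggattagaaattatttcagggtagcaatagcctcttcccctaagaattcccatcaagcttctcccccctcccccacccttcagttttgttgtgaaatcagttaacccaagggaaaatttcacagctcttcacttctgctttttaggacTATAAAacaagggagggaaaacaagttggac
Nfkbia: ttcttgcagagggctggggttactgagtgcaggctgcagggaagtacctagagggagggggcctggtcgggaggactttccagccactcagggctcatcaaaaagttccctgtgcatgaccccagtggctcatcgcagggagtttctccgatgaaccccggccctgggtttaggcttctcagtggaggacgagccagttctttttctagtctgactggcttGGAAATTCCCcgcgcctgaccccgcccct

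TATAAA began 29 bases before the start in Tnf and 31 bases before it in Il1b, and was not found upstream in Nfkbia. Of 32851 promoters of 300 bases in the table (250 before and 50 after the start), 13.6% held TATAAA on either strand. In the 250 upstream bases alone, 12.4% did. The Nfkbia promoter held the match GGAAATTCCC, which began 29 bases before the start and reads as the NF-kB consensus on the opposite strand. That consensus was found in 8.46% of all promoters, and in 7.25% within the upstream bases alone. In the full 300 bases there was 1 further TATAAA on the opposite strand, in the first bases of the Nfkbia transcript, and 1 match to the PU.1 core GAGGAA in Tnf, a motif that 28.3% of promoters held. AP-1 (TGANTCA, in 7.81% of promoters), IRF (GAAA, any 2 bases and GAAA again, 3.44%), C/EBP (TTGCNNAA, 10.8%), CRE (TGACGTCA, 1.79%) and the nuclear receptor half-site AGGTCA (16.3%) had no match in these 3 stretches. Both strands were searched with these exact letters, and no match overlapped another; a lack of a match says nothing of the factor.

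In the 6 windows together, Kupffer-only peaks outnumbered endothelial-only peaks by 80 to 10, beside 83884 to 38129 over the whole lists. Of the 122 Kupffer-list peaks, 65.6% were Kupffer-only (95% exact binomial interval 56.4% to 73.9%), beside 60.9% of the whole Kupffer list, so this share was near its background. Of the 50 endothelial-list peaks, 20% were endothelial-only (10% to 33.7%), beside 41.7% of the whole endothelial list. The other 40 endothelial peaks overlapped 42 Kupffer peaks. The windows held 2.44 Kupffer peaks per endothelial peak, and the whole lists held 1.51. The intervals treat neighbouring peaks as independent and cover counting error only, and with 2 lists and no replicate no difference was tested.

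**Figure D1:**
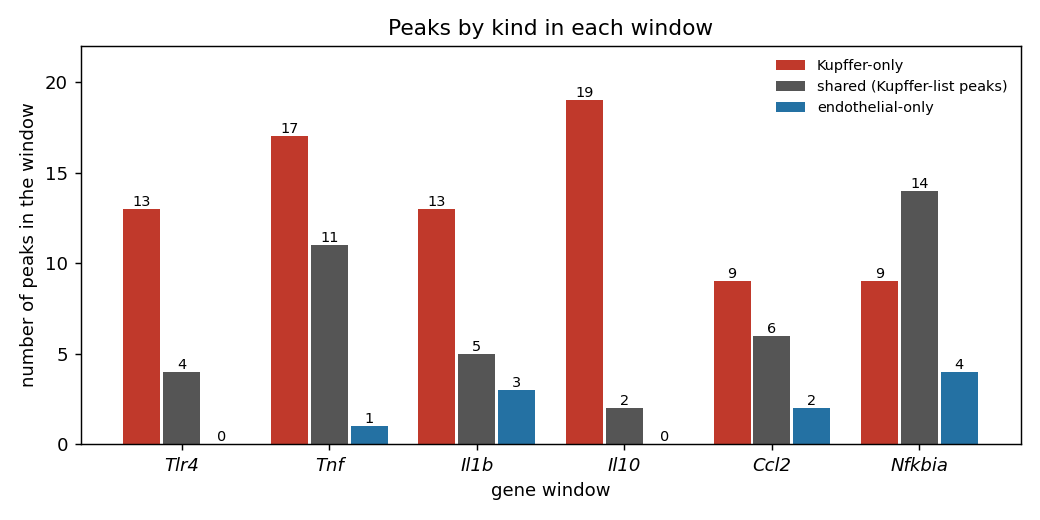
Number of Kupffer-only peaks (red), shared Kupffer-list peaks (grey) and endothelial-only peaks (blue) in each gene window. Kupffer-only peaks range from 9 to 19 and endothelial-only peaks from 0 to 4, and Nfkbia is the window in which shared peaks, 14, outnumber Kupffer-only peaks.

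The 6 loci differed in their make-up. Kupffer-only peaks made up 90.5% of the Kupffer peaks at Il10 (69.6% to 98.8%), 76.5% at Tlr4 (50.1% to 93.2%) and 72.2% at Il1b (46.5% to 90.3%). The share was 60.7% at Tnf (40.6% to 78.5%), 60% at Ccl2 (32.3% to 83.7%) and 39.1% at Nfkbia (19.7% to 61.5%). Il10 thus had the highest share and Nfkbia the lowest, beside 60.9% of the whole list. Neighbouring peaks are not independent, and 15 of the 19 Kupffer-only peaks of Il10 lay in 1 run. The intervals therefore cannot separate the loci from each other or from the whole list, and no difference was tested. Endothelial-only peaks numbered 4 at Nfkbia, 3 at Il1b, 2 at Ccl2, 1 at Tnf and none at Tlr4 or Il10.

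**Figure D2:**
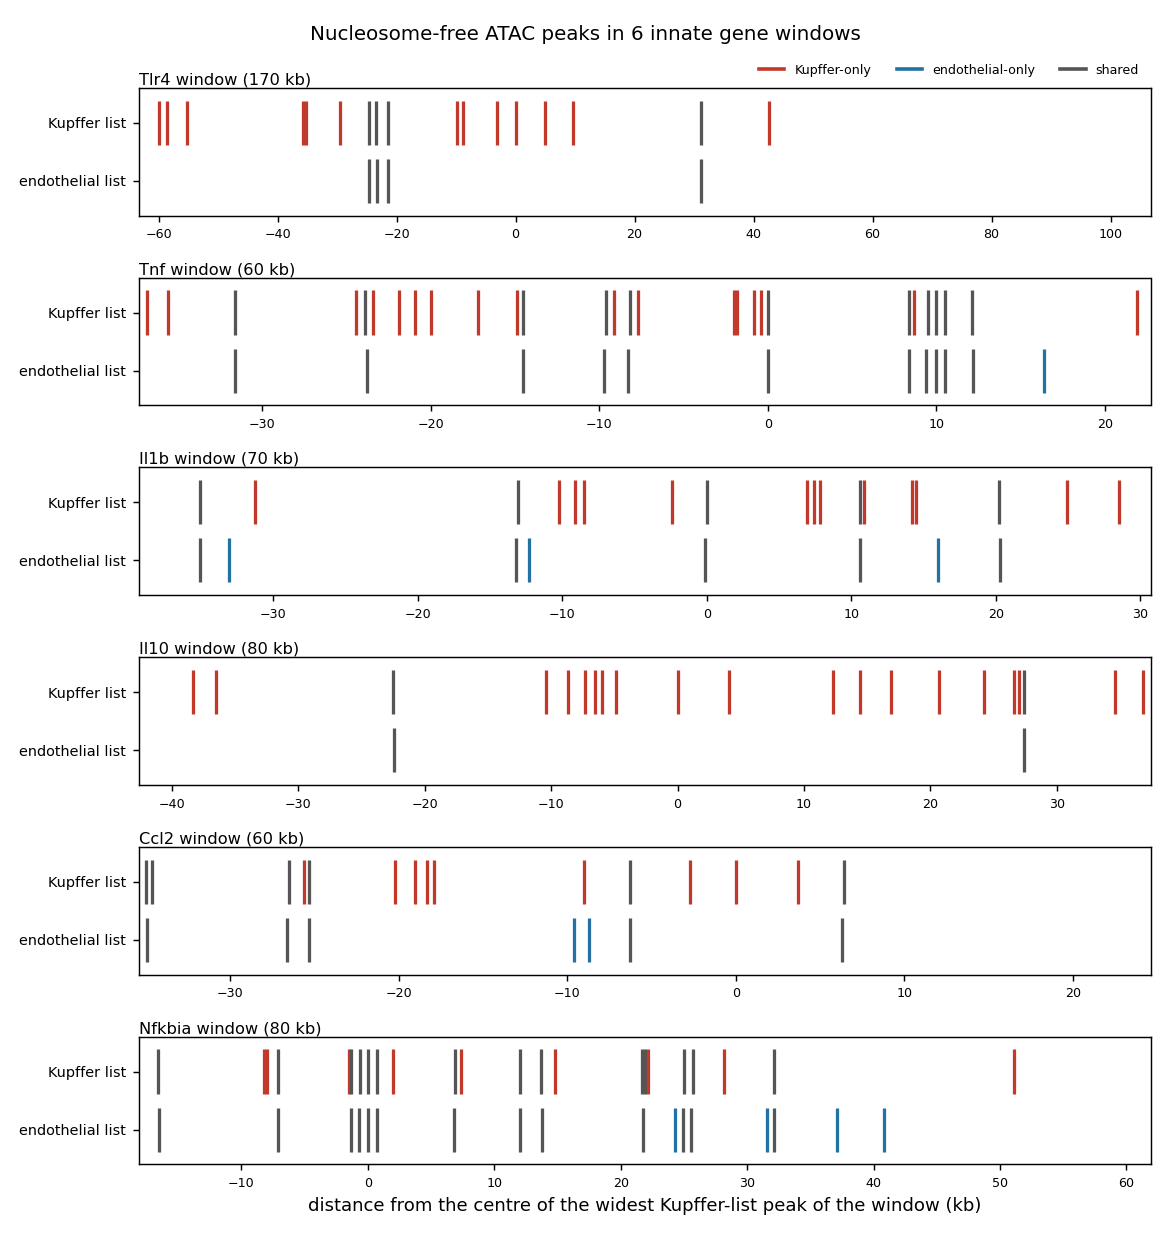
Peaks of the Kupffer list (upper row) and the endothelial list (lower row) in each window, drawn at their centres against the distance in kb from the centre of the widest Kupffer-list peak; line width is not to scale. Red marks Kupffer-only, blue endothelial-only and grey shared peaks; at Il10 the endothelial row holds 2 peaks and the Kupffer row 21.

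At Tlr4, the receptor of the group, Kupffer cells had 17 peaks in a window of 170 kb (chr4:66450001-66620000) and endothelial cells had 4. All 4 endothelial peaks were shared, which with so few peaks still allows an endothelial-only share of up to 60.2%. There were 3 shared sites close together, with endothelial peaks at chr4:66488483-66488749, chr4:66489852-66490064 and chr4:66491686-66491836. At the first of these, the widest shared site of the locus, the Kupffer peak at chr4:66488499-66488821 was 323 bp wide and the endothelial peak 267 bp. The fourth shared site lay apart, at chr4:66544445-66544595 in the endothelial list, and both lists called it with 151 bp, the commonest width in either list. Kupffer-only peaks flanked the trio of shared sites on both sides. A run of 6 lay on the side of lower coordinates, over 30.5 kb from chr4:66453339 to 66483861. A further 6 lay between the trio and the fourth shared site, among them the widest Kupffer-only peak of the locus, 383 bp at chr4:66513077-66513459. Of the 13 Kupffer-only peaks, 12 were over 10 kb from the nearest endothelial peak, beside 31.8% of all Kupffer-only peaks of the genome. The 13 had a median distance of 18.27 kb and a range of 4.6 to 27.8 kb. These distances restate in part that the window held only 4 endothelial peaks. Neither list had a peak in the last 64.0 kb of the window.

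The Tnf window (chr17:35310001-35370000, 60 kb) had the most Kupffer peaks for its length of the 6, with 28, and held 12 endothelial peaks; in the endothelial list Nfkbia was slightly denser, with 21.2 against 20 peaks per 100 kb. Of the endothelial peaks 11 were shared and 1 was endothelial-only, at chr17:35363540-35363770. Shared and Kupffer-only sites were interleaved. The 17 Kupffer-only peaks lay a median of 0.88 kb from the nearest endothelial peak (range 0.1 to 3.6 kb). Within 1 kb lay 9 of them, beside 22.5% of all Kupffer-only peaks of the genome. The widest shared site was called at chr17:35347181-35347510 in Kupffer cells and at chr17:35347185-35347470 in endothelial cells. It followed 4 Kupffer-only peaks that began at chr17:35345170. A group of 5 shared sites began with the endothelial peak at chr17:35355579-35355799 and ended with that at chr17:35359377-35359527, and 1 Kupffer-only peak lay among them. The longest run of Kupffer-only sites, 6 peaks over 8.7 kb, extended from chr17:35323802 to 35332533, and it took up most of the longest stretch without an endothelial peak, 9.1 kb. The widest Kupffer-only peak, 297 bp, lay near the edge of the window at chr17:35311512-35311808. In the RefSeq table Tnf lies between Ltb and Lta, with Lst1 and Nfkbil1 next to these, so peaks of the window need not belong to Tnf; which of these genes the window includes on mm9 was not determined.

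The Il1b window (chr2:129160001-129230000, 70 kb) held 18 Kupffer and 8 endothelial peaks, and 5 sites were shared. Its 13 Kupffer-only peaks outnumbered 3 endothelial-only ones. In the wider 50% of each list, a setting that removes partners by construction, the counts were 4 and 5. The 5 include the endothelial peaks at chr2:129209751-129210012 and chr2:129219447-129219676, shared in the full lists with Kupffer peaks of 195 and 197 bp. Endothelial peaks here were wide. The widest endothelial peak of all 6 windows was a shared one of 472 bp at chr2:129185823-129186294, and the Kupffer peak on it, at chr2:129186078-129186323, was 246 bp wide. The endothelial peak was the wider of the pair at each of the 5 shared sites. The 3 endothelial-only peaks were 289, 333 and 289 bp wide, and the widest, at chr2:129186853-129187185, lay 529 bp from the nearest Kupffer peak. Kupffer-only peaks were narrower, with a median of 191 bp, and the widest was 248 bp, at chr2:129213393-129213640. The longest run of these was of 4 peaks over 8.0 kb, from chr2:129188980 to 129196976. It was followed by the shared site with the widest Kupffer peak, 319 bp at chr2:129199113-129199431. The closest pair of opposite kind was an endothelial-only peak at chr2:129215128-129215416 and a Kupffer-only peak at chr2:129213690-129213915, with 1212 bp between them. Neighbours of Il1b in the table are Il1a, which encodes the related cytokine IL-1 alpha, and F830045P16Rik.

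Ccl2, the chemokine gene, had 15 Kupffer and 7 endothelial peaks in 60 kb (chr11:81820001-81880000). The lists shared 5 sites, with 6 Kupffer peaks on 5 endothelial ones, since the endothelial peak of 343 bp at chr11:81820339-81820681 reached over 2 Kupffer peaks. The widest peak of the 6 windows was found here, a Kupffer-only peak of 543 bp at chr11:81855135-81855677, which lay 5932 bp from the nearest endothelial peak. Peaks of opposite kind alternated at a short distance: endothelial-only peaks at chr11:81845663-81845920 and chr11:81846583-81846824 stood on either side of a Kupffer-only peak at chr11:81846251-81846470. The second of them was 112 bp from it and the first 330 bp, so both endothelial-only calls of this window would count as shared if peaks within 500 bp did. The next site along, with peaks at chr11:81848961-81849202 and chr11:81848995-81849205, was shared. The longest run of Kupffer-only peaks was compact, with 4 over 2.5 kb from chr11:81835105 to 81837582. No peak was called in the last 18.1 kb of the window in either list. Ccl7, Ccl11, Ccl12 and Ccl8, other chemokine genes, follow Ccl2 in the table.

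Il10, the gene of the anti-inflammatory cytokine, had the highest ratio of Kupffer to endothelial peaks with all peaks counted. The window of 80 kb (chr1:132880001-132960000) held 21 Kupffer peaks and 2 endothelial peaks, a ratio of 10.5, and both endothelial peaks were shared. In the wider 50% of each list, a setting that removes partners by construction, it held 7 Kupffer-only, 2 endothelial-only and no shared peaks. With all peaks counted, the endothelial peaks lay at chr1:132900013-132900329 and chr1:132949867-132950100, and at both sites the endothelial peak was the wider of the pair, with 317 against 161 bp and 234 against 197 bp. Between them was a stretch of 49.5 kb with no endothelial peak, and in it an uninterrupted run of 15 Kupffer-only peaks extended over 37.6 kb from chr1:132912061 to 132949691. This was the longest run of the 6 windows, and the next longest, at Tlr4 and Tnf, were of 6 peaks. A run ends at any endothelial peak, so its length restates in part how few of these the window held. Run lengths over the whole lists were not counted. The widest peaks of the run were 459 bp (chr1:132922338-132922796) and 409 bp (chr1:132943135-132943543), against a median of 194 bp for the 19 Kupffer-only peaks of the locus. The 459 bp peak was 22008 bp from the nearest endothelial peak. In all, 13 of the 19 Kupffer-only peaks lay over 10 kb from any endothelial peak, beside 31.8% of all Kupffer-only peaks of the genome. The median distance at Il10 was 13.49 kb. Il19, which encodes a cytokine of the same family, and Mapkapk2, which encodes a stress-activated kinase, are the neighbours of Il10 in the table, and whether the peaks belong to any of these genes was not determined.

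Nfkbia, the NF-kB inhibitor gene, had the most even map. Its window of 80 kb (chr12:56550001-56630000) held 23 Kupffer and 17 endothelial peaks, a ratio of 1.35, which was the lowest of the 6 and below the 1.51 of the whole lists. There were 13 shared sites, made of 13 endothelial and 14 Kupffer peaks, beside 9 Kupffer-only and 4 endothelial-only peaks. In the wider 50% of each list, which removes partners by construction, the counts were 4 and 4. Among them were peaks shared in the full lists, such as the Kupffer peak at chr12:56567931-56568210, whose endothelial partner was 151 bp wide. On the endothelial side, the peak at chr12:56581730-56582020 had lost a Kupffer partner of 151 bp. Shared sites came in groups. The endothelial peaks of 4 of them lay between chr12:56566755 and 56568911, and another 3 began at chr12:56589783, 56592906 and 56593536. The last of these was the widest endothelial peak of the locus, 358 bp. Kupffer-only peaks were narrow, with a median of 151 bp, the least width of any peak in the windows. Exactly that width was found for 5 of the 9, beside 26% of the whole Kupffer list. The Kupffer-only peaks did not form runs longer than 2 peaks. Of the 9, 6 lay within 1 kb of an endothelial peak, beside 22.5% of all Kupffer-only peaks of the genome. The 3 endothelial-only peaks with the highest coordinates lay at chr12:56599568-56599894, chr12:56605097-56605303 and chr12:56608843-56608993. The first, 327 bp wide, was the widest of the 4 and lay 218 bp from a Kupffer peak. In the table Nfkbia lies between Psma6 and Aldoart2.

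**Figure D3:**
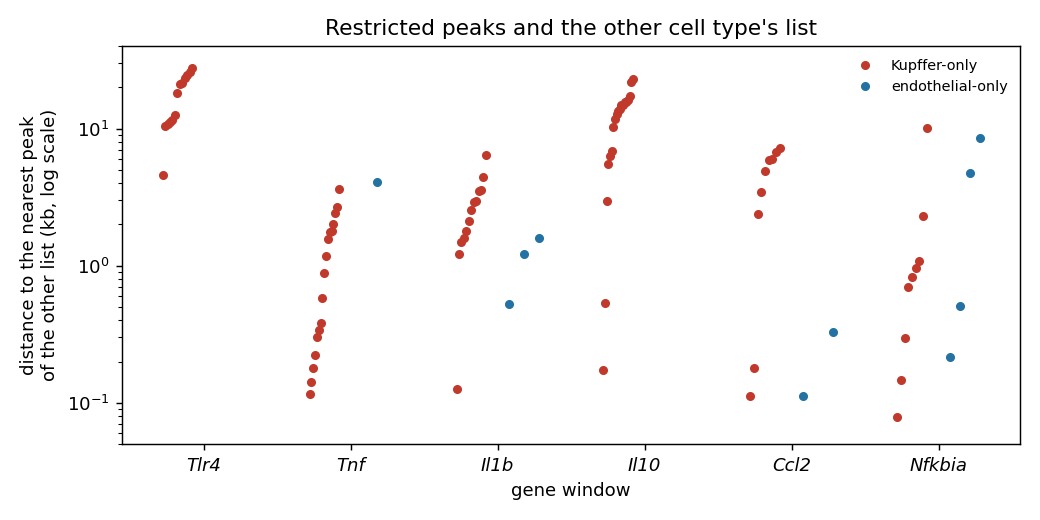
Distance in kb (log scale) from each restricted peak to the nearest peak of the other cell type's list, by window, with Kupffer-only peaks in red and endothelial-only peaks in blue; points of a window are spread sideways in order of value. Above 10 kb lie 12 of the 13 points of Tlr4 and 13 of the 19 of Il10, and those of Tnf lie between 0.1 and 4.0 kb.

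The distance from a restricted peak to the other cell type's list restates in part how many peaks that list has in the window, so it is no separate result. Over the 6 windows the 80 Kupffer-only peaks lay a median of 3.47 kb from an endothelial peak, beside 4.81 kb over all Kupffer-only peaks of the genome; 25% were within 1 kb and 32.5% beyond 10 kb, beside 22.5% and 31.8%. These pooled values were near the background, and the loci lay on either side of it. Of the 26 Kupffer-only peaks beyond 10 kb, 12 were at Tlr4 and 13 at Il10. Of the 20 within 1 kb, 9 were at Tnf and 6 at Nfkbia. The 10 endothelial-only peaks had a median distance of 0.87 kb to a Kupffer peak and none was beyond 10 kb, beside a median of 3.67 kb and 29.4% beyond 10 kb over the whole endothelial list. Tlr4 and Il10 are also the windows with the fewest endothelial peaks, 4 and 2, while Tnf and Nfkbia have the most, 12 and 17. Likewise, dense Kupffer peaks leave less room for long distances from endothelial-only peaks; the part of density in these distances was not tested.

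The windows held 42 pairs of overlapping peaks. Their centres were a median of 30.5 bp apart, from 0 to 264 bp, beside 25 bp over the 54534 pairs of the whole lists, and the least overlap was 31 bp. Pairs are chosen by their overlap, so short distances follow in part from the rule. Both the largest distance and the least overlap came from the pair at Ccl2 in which 1 endothelial peak reached over 2 Kupffer peaks. The endothelial peak was the wider in 23 pairs (54.8%, beside 43.4% over the whole lists), the Kupffer peak in 15 (35.7%, beside 41.8%), and the widths were equal in 4. Among the 23 pairs, 2 endothelial peaks, at Ccl2 and Nfkbia, were each counted 2 times. The median width in the endothelial list was 238.5 bp for the 40 shared and 250 bp for the 10 endothelial-only peaks, beside 210 and 171 bp over the whole list. In the Kupffer list the medians were 210.5 bp for 42 shared and 196 bp for 80 Kupffer-only peaks, beside 207 and 194 bp. The width of a peak also depends on how libraries were merged, a step the sources used here do not describe.

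**Figure D4:**
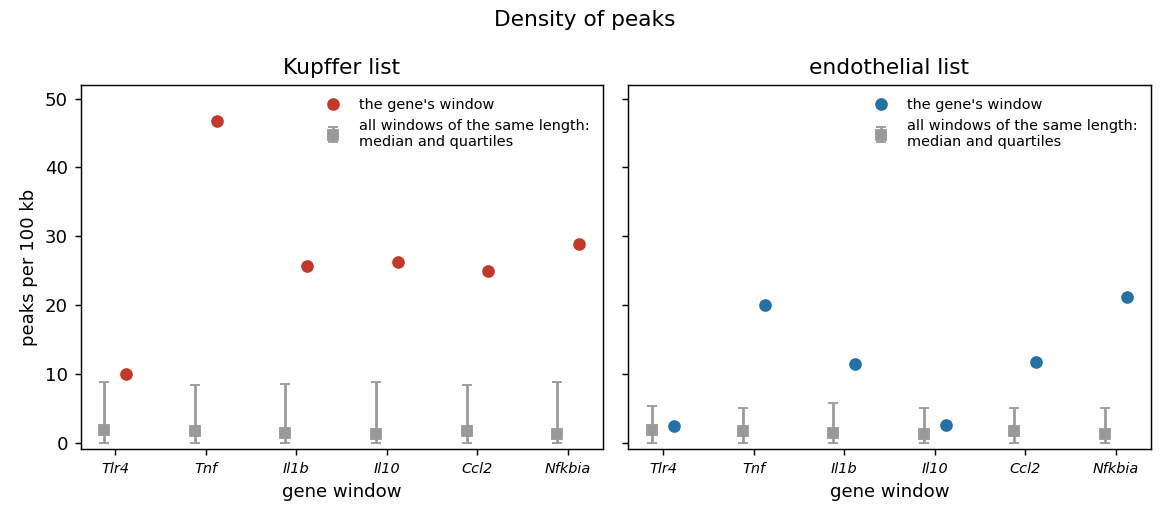
Peaks per 100 kb in each gene window (coloured points) beside the median and quartiles over all non-overlapping windows of the same length on chromosomes 1 to 19 and X (grey squares and bars), for the Kupffer list and the endothelial list. The endothelial points of Tlr4 and Il10, 2.35 and 2.5, lie within the grey bars and all Kupffer points lie above them.

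Windows of equal length were laid end to end over the genome for comparison. All 6 loci lay above their upper quartile for Kupffer peaks, Tlr4 only a little, and 4 of them for endothelial peaks. The Kupffer list had 46.7 peaks per 100 kb at Tnf, 28.8 at Nfkbia, 26.2 at Il10, 25.7 at Il1b, 25 at Ccl2 and 10 at Tlr4. The upper quartile of all windows was between 8.33 and 8.82. Among 43947 windows of 60 kb, 0.0319% had as many Kupffer peaks as that of Tnf (28) or more. The same share was 1.53% for the 23 Kupffer peaks of Nfkbia, 2.49% for the 21 of Il10, 2.96% for the 18 of Il1b, 3.76% for the 15 of Ccl2 and 22.3% for the 17 of Tlr4 in its longer window. For Kupffer-only peaks the order changed. As many as the 17 of Tnf or more were found in 0.207% of windows and as many as the 19 of Il10 in 0.455%, while the share was 2% for Il1b, 4.99% for Ccl2, 9.08% for Nfkbia and 16.5% for Tlr4. In the endothelial list the density was 21.2 per 100 kb at Nfkbia, 20 at Tnf, 11.7 at Ccl2 and 11.4 at Il1b, and 1.34%, 2.23%, 10.1% and 10% of windows had as many endothelial peaks as these loci or more. At Il10 and Tlr4 it was 2.5 and 2.35, and 43.4% and 45.4% of windows of those lengths had as many endothelial peaks or more. Nfkbia was the only one of the 6 to rank at least as high in the endothelial list as in the Kupffer list. These windows cover regions without genes as well, while the 6 loci were chosen around genes. Windows around other genes were not counted, so whether a high rank is particular to innate genes was not tested.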

How the data were processed

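The authors deposited 2 peak lists, 1 per cell type, with 3 columns (chromosome, start, end) and no score, count or library of origin. The submitters' processing notes name Bowtie, HOMER and mm9 and no version. How peaks were thresholded, fragments selected, transposase offsets treated and the 16 libraries of a cell type pooled is not given in the sources used here. Positions are on mm9, counted from 1. Windows were those of the rule, and a peak belonged to a window by its centre. Python 3.11.15 with NumPy 2.4.6 gave overlaps, distances and widths; the overlap counting was tested on simulated data, and the genome-wide counts of shared peaks were identical to those of bedtools 2.31.1. Exact (Clopper-Pearson) 95% intervals came from SciPy 1.17.1. Peaks named by position were the widest of each kind, the closest pair of opposite kind and the longest run in each window; other peaks named were chosen after their values were seen. Members and lists were chosen with earlier results of these data known. No mm9 genome or annotation was used, so no peak was placed at a gene start, exon or intron, no peak sequence was read, and cell type markers and other pathway genes were not analysed here. Promoters and the order of neighbouring genes came from RefSeq tables on GRCm38.p6. Alternatives changed the definition of sharing, peak width, joining of close peaks, assignment to windows, window length and the stretch searched for motifs. No columns of other samples were present.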

Additional observations from a re-analysis of the deposited data

How the results depend on the processing

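Kupffer-only peaks outnumbered endothelial-only peaks in 6 of 6 windows in each setting run except the wider 50% of each list. The whole lists had the same order, with 83884 against 38129, and the share of all windows with this order was not counted. In the wider 50% of each list the order held in 4 windows. Il1b turned to 4 against 5 and Nfkbia to 4 against 4, counts that include shared peaks whose narrower partner the setting removed. That setting left 46 Kupffer-only, 20 shared Kupffer and 20 shared endothelial peaks, and the endothelial-only share rose to 42.9% (53.1% over the whole list), since it removes partners by construction. Counting peaks within 500 bp as shared gave a Kupffer-only share of 54.1% (52% over the whole list). Windows widened by their own length on either side held, by construction, more: 161 Kupffer-only, 25 endothelial-only, 95 shared Kupffer and 93 shared endothelial peaks. Of 48 alternatives for the summed values, 39 stayed within 1.5 times a count or within the interval of a share; of 126 for single windows, 91 did. At Tnf, Kupffer-only peaks fell from 17 to 10 when a distance of up to 500 bp counted as shared and to 8 when peaks that close were joined; at Ccl2 the endothelial-only peaks fell from 2 to 0 in the former. In the wider 50% of each list Kupffer-only peaks at Il10 fell from 19 to 7, and both endothelial peaks there became endothelial-only. The Kupffer to endothelial ratio in the windows was between 1.89 and 2.71 in all settings, and between 1.43 and 1.7 over the whole lists. No paired analysis was possible because single libraries have no values in these lists, and so no replicate could be left out. Depth, which is not recorded, limits every statement on a peak missing from a list.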
